A study of Homo sapiens with 12 samples.

Results

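RAB proteins are small GTPases that give each compartment of the secretory and endocytic pathways its identity. A RAB carries lipid anchors and cycles between a GDP-bound form held in the cytosol by an escort protein and a GTP-bound form on its membrane, where it recruits effectors such as tethers, motors and lipid kinases. Exchange factors load GTP and GTPase-activating proteins of the TBC family return the RAB to the GDP form. In liver cells these proteins serve the heavy secretion of plasma proteins and lipoproteins, the uptake and recycling of receptors and the polarised delivery of membrane.

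The genes described here are the RAB genes of the deposited Huh7 table. The rule took each row whose symbol is RAB, a number and at most 1 further letter, and left out rows described as pseudogenes, which gave 63 of 60666 listed genes. The rule itself reads symbols and descriptions, although the RAB family was chosen with earlier results of these data known. Huh7 is an established line of human hepatocellular carcinoma (HCC). The control group (NC) and the knockdown group (KD) were each represented by 3 RNA-seq libraries, both grown in high-glucose DMEM with foetal bovine serum and antibiotics. The knockdown cells carried a lentiviral short hairpin RNA against FAM111B, a trypsin-like protease gene. Transduced cells were selected with puromycin, and the knockdown rests on 1 hairpin sequence. The Hep3B libraries of the same series were not analysed here. The question was how the expression of genes differs between control and FAM111B-depleted HCC cells, and here how it differs for the RAB genes.

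The values are TPM, which divide the reads of a gene by its length and scale each library to the same fixed total. They hold no sequencing depth, so the number of reads behind a value is unknown. The labels do not say whether the libraries came from separate cultures, and the p-values therefore measure the spread between these libraries, which may be technical. FAM111B itself, which checks the labels, was at 7.84, 8.29 and 7.99 TPM in the control libraries and 0.96, 1.13 and 0.84 TPM in the knockdown libraries (log2 fold change -2.20, SE 0.11, adjusted p = 6.1e-06). All 10 hepatocyte and HCC markers were at 1 TPM or more in each library, with a summed level of 27950 to 28520 TPM in the control and 41570 to 46540 TPM in the knockdown group. AFP was at 7045 to 7411 TPM in the control and 21853 to 25038 TPM in the knockdown libraries. APOA1, TTR and GPC3 were also higher in the knockdown libraries, while ALB, APOB, FGB, HNF4A, SERPINA1 and TF were lower, so the sum does not describe each marker. Of 10 markers of other cells, 4 (EPCAM, CD68, COL1A2 and PECAM1) reached 1 TPM in each library, and the sum was 57.0 to 60.8 TPM in the control and 73.4 to 80.9 TPM in the knockdown group. The immune markers CD3E and CD79A and the stromal marker DCN were listed at 0 in all control libraries. Pearson's r of log2(TPM + 1) was 0.969 to 0.984 between libraries of one group and 0.865 to 0.883 between groups. The genes of the mitochondrial chromosome summed to 196140 to 201464 TPM in the control and 73237 to 78883 TPM in the knockdown libraries. Small noncoding RNA genes summed to 1653 to 4840 TPM in the control libraries, and to 46863, 69045 and 5107 TPM in knockdown libraries 1, 2 and 3, so that libraries 1 and 2 of the knockdown stand apart in this class. In a sum of this kind a change in one class moves the TPM of all other genes. Their part in the RAB values was not tested directly, but 1 of the alternative scalings below takes both classes out of the library sum.

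The hairpin and the promoters of the 4 RAB genes whose call held under each scaling are shown first. The promoters enter none of the fold changes, shares or ratios below. The hairpin's target of 19 bases, with the 7 bases that pair with the seed of the guide strand in capitals, lies in the coding part of exon 4 of FAM111B on GRCh38, at chr11:59124545-59124563 on the plus strand.
shFAM111B target: ctgcctagtgaTTCTCATt
Among the 14251 tested genes with a GENCODE v29 transcript, the 19 bases were found in the longest transcript of 1 gene, FAM111B, and in that of none of the 45 tested RAB genes. The 7 capital bases alone occurred in the longest transcript of 17 of the 45 tested RAB genes (37.8%) and of 4110 of the 14251 tested genes (28.8%). The median log2 fold change of the 17 RAB genes with these 7 bases was -0.65 and that of the 28 without was -0.37, with 4 and 6 called lower. Transcript length moved with this split, with median longest transcripts of 4145 and 2877.5 nt. Over all tested genes the medians were -0.65 with and -0.24 without the 7 bases, and the longest transcripts were again longer with them, 4657 against 2702 nt. The part of seed pairing in these values was not tested.

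Promoters were read from RefSeq on GRCh38.p14, from 250 bases before to 50 bases after 1 start per gene given there, written 5′ to 3′ on the gene's own strand. Capitals mark each match on either strand to 1 of 5 motifs, the GC box, the CCAAT box, the TATA box, the E-box and the cyclic AMP response element (CRE). RAB8B and RAB21 are the 2 genes called lower under each scaling, at chr15:63189356-63189655 (plus strand) and chr12:71754613-71754912 (plus strand). RAB17 and RAB3C are the 2 called higher under each scaling, at chr2:237590685-237590984 (minus strand) and chr5:58582825-58583124 (plus strand).
RAB8B: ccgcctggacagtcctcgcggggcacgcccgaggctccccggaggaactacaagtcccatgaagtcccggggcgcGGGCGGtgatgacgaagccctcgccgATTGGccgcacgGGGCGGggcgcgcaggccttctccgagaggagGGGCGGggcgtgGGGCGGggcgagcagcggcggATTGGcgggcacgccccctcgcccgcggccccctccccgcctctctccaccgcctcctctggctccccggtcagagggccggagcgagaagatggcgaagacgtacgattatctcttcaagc
RAB21: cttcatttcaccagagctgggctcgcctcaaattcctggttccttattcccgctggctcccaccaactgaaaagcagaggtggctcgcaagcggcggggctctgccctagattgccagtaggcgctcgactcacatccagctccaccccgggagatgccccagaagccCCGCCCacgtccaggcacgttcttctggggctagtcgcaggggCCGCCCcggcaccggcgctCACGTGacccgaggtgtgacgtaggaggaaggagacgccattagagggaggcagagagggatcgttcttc
RAB17: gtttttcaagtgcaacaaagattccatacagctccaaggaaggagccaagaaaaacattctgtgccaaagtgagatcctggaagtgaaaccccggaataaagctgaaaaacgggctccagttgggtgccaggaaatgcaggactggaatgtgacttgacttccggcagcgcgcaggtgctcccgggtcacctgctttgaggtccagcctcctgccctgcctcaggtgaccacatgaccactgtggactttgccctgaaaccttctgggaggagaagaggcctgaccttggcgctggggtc
RAB3C: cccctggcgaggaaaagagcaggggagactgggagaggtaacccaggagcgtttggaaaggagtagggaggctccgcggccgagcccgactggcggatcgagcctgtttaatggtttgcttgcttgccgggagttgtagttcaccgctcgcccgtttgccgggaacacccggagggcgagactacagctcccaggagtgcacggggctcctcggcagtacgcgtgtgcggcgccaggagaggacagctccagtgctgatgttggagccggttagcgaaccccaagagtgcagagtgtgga
The RAB8B window held 4 GC boxes and 2 CCAAT boxes, had a GC content of 73.3% and 38 CpG dinucleotides. The RAB21 window held 2 GC boxes and 1 E-box, with 63.3% GC and 21 CpG. None of the 5 motifs was found in the windows of RAB17, with 54.7% GC and 7 CpG, and RAB3C, with 63.3% GC and 23 CpG. Both windows lie inside the gene as GENCODE v29 places it, with outer starts at chr2:237601614 and chr5:58582221. They therefore describe internal starts, and the outer starts were not read. Promoters were found for 38 of the 45 tested RAB genes, and 32 of them held the GC box GGGCGG (84.2%), against 69.4% of the 10126 promoters of tested genes and 44.6% of all 27305 promoters. The CCAAT box is spelled by its own name, and it was in 11 of the 38 (28.9%), in 37.3% of the promoters of tested genes and in 35.7% of all promoters. The TATA box TATAAA was in none of the 38, in 6.03% of the promoters of tested genes and in 12% of all promoters. The E-box CACGTG was in 6 of the 38 (15.8%), in 10.3% of the promoters of tested genes and in 7.43% of all promoters. The CRE, searched as TGACGTCA, was in none of the 38, in 3.41% of the promoters of tested genes and in 1.98% of all promoters. Of the 8 promoters found for genes called lower, 6 held a GC box and 4 a CCAAT box. The 2 of genes called higher, the internal windows of RAB17 and RAB3C, held neither. A match is a run of letters and not a bound site.

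Of the 63 RAB genes, 45 reached 1 TPM in at least 3 of the 6 libraries and were tested. A gene high in 1 group alone passes this filter, so counts over the 45 describe expressed RAB genes and not all RAB genes. The other 18 were RAB3A, RAB6C, RAB6D, RAB7B, RAB9B, RAB19, RAB20, RAB25, RAB27B, RAB33A, RAB36, RAB38, RAB39A, RAB39B, RAB40A, RAB41, RAB42 and RAB44. RAB6C, RAB19 and RAB39A were listed at 0 in each library, and 17 of the 18 stayed below 1 TPM throughout. The exception was RAB36, a Golgi RAB, with 0.09, 0.06 and 0.10 TPM in the control libraries and 0.67, 0.87 and 2.78 TPM in the knockdown libraries, so that its groups did not overlap. The untested genes include RABs known from neurons (RAB3A, RAB39B), melanocytes (RAB38) and secretory epithelia (RAB25, RAB27B).

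**Figure D1:**
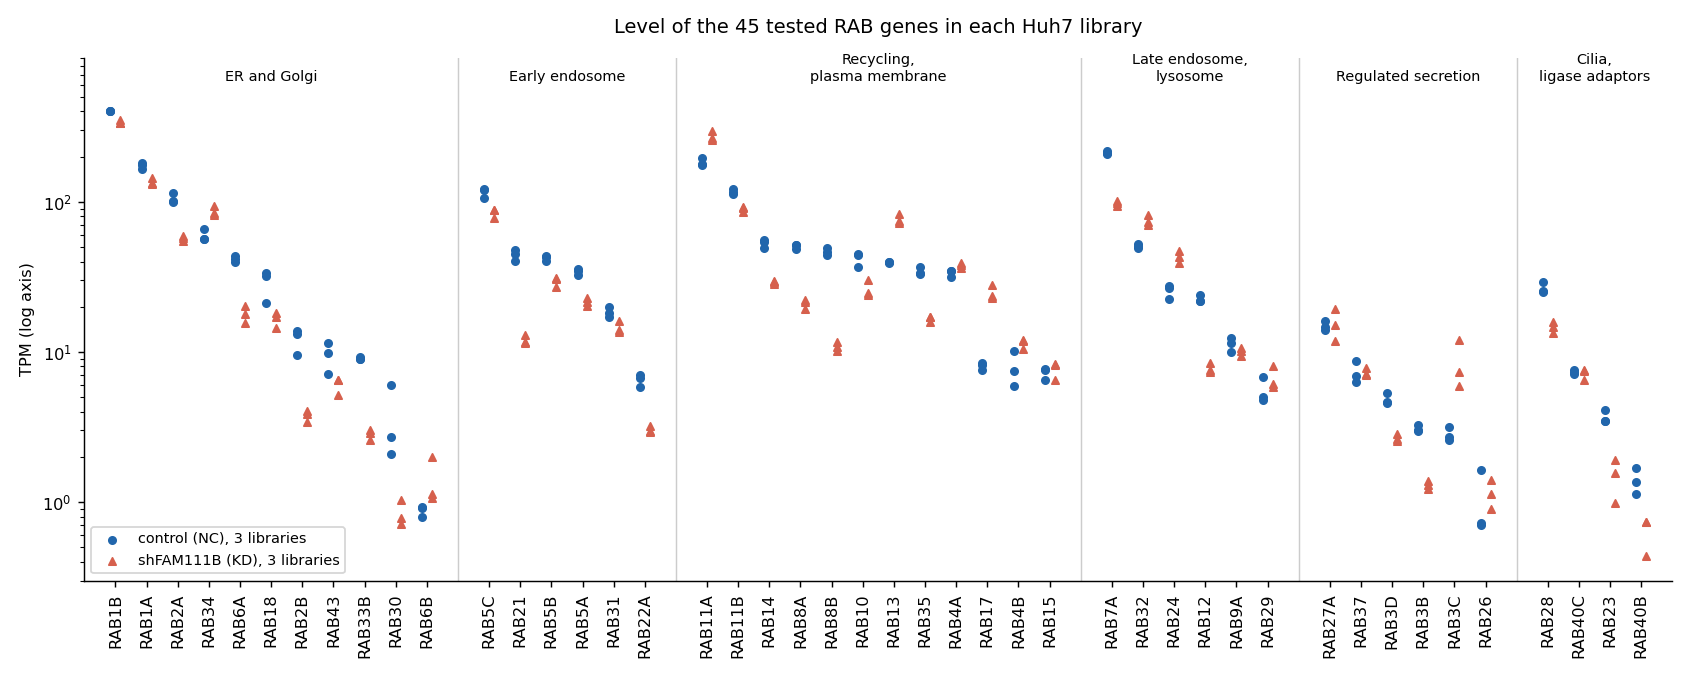
TPM (log axis) of the 45 tested RAB genes in each of the 3 control (circles) and 3 knockdown (triangles) Huh7 libraries, grouped by compartment and ordered by the control mean. RAB1B lies highest in both groups, RAB7A, RAB8B and RAB21 lie lower in the knockdown libraries, and RAB11A, RAB13 and RAB17 lie higher.

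The mean control level of the tested RAB genes, which TPM give per length, ran from 0.88 TPM (RAB6B) to 401 TPM (RAB1B). In the control group 7 genes had a mean of 100 TPM or more and 28 of 10 TPM or more. RAB1B, which drives transport from the endoplasmic reticulum (ER) to the Golgi, was highest, at 399, 402 and 402 TPM in the control libraries and 335, 336 and 348 TPM in the knockdown libraries. In the control libraries RAB7A of late endosomes came next with 218, 209.6 and 209 TPM, above all values of RAB11A of recycling endosomes (195, 176 and 178 TPM). RAB1A (177, 181 and 164 TPM) overlapped RAB11A. RAB11B, RAB5C and RAB2A, with means of 117, 115 and 105 TPM, overlapped in their ranges and were not separated beyond their spread. In the knockdown libraries RAB11A came next to RAB1B and RAB7A lay below RAB1A, where it (97.7, 101 and 93.1 TPM) overlapped RAB34 (93.6, 81.1 and 83.97 TPM).

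The whole RAB set summed to 2177, 2118 and 2103 TPM in the control libraries and to 1766, 1767 and 1757 TPM in the knockdown libraries, a mean of 82.7% of the control, with groups that did not overlap (exact permutation test, two-sided, p = 0.1, the smallest that 3 against 3 libraries allow). In bulk RNA fewer cells of a kind and less RNA per cell cannot be told apart. The share of each gene in this sum does not change with a factor that multiplies a whole library. RAB1B held 18.8% ± 0.41 (SD, n = 3) of the sum in the control and 19.3% ± 0.45 in the knockdown libraries, so that its share overlapped between groups. RAB7A went from 9.95% ± 0.055 to 5.51% ± 0.2. RAB11A went from 8.58% ± 0.36 to 15.5% ± 1, and its groups did not overlap. RAB34, a Golgi and ciliary RAB, held 2.8% ± 0.27 and 4.89% ± 0.37, and RAB32, which acts at melanosomes and at contacts between mitochondria and ER, held 2.38% ± 0.097 and 4.26% ± 0.36. RAB1A, RAB11B and RAB5C held 8.16% ± 0.36, 5.49% ± 0.29 and 5.4% ± 0.38 in the control against 7.72% ± 0.35, 5.05% ± 0.2 and 4.81% ± 0.3 in the knockdown libraries, differences under 1 percentage point. RAB2A went from 4.92% ± 0.29 to 3.24% ± 0.12 and RAB14 from 2.47% ± 0.13 to 1.65% ± 0.029. These 10 genes together held 68.5% to 69.4% of the sum in the control and 71.0% to 72.7% in the knockdown libraries. By compartment, the recycling and plasma membrane RABs held 29.1% to 29.3% in the control and 34.7% to 36.4% in the knockdown libraries, while the early endosome RABs held 11.8% to 12.5% and 9.01% to 9.77%. The ER and Golgi RABs held 39.4% to 40.0% and 37.7% to 38.3%, and the late endosome and lysosome RABs 15.2% to 15.6% and 13.1% to 14.2%. The mean gain of the recycling and plasma membrane RABs was smaller than that of RAB11A alone. Likewise, the mean loss of the late endosome and lysosome RABs was smaller than that of RAB7A alone. The other genes of these 2 compartments moved both ways in share. Among the recycling and plasma membrane RABs, RAB13 went from 1.86% to 4.33% and RAB8B from 2.19% to 0.617%. Among the late endosome and lysosome RABs, RAB12 went from 1.06% to 0.443%, while RAB32 gained as given above. Each compartment shift is thus a net of gains and losses.

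**Figure D2:**
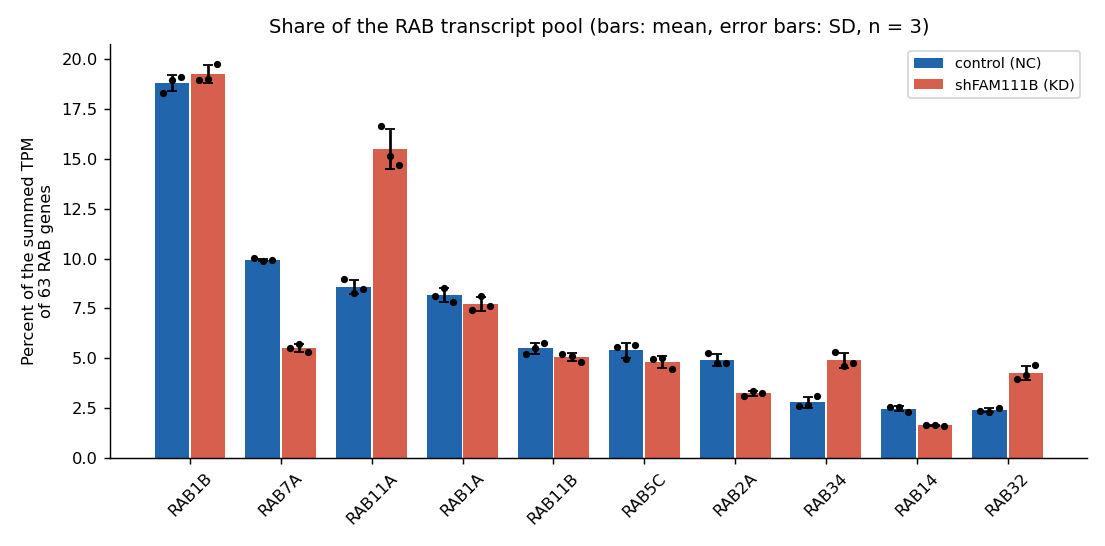
Percent of the summed TPM of the 63 RAB genes held by the 10 genes with the largest control share, as the mean of 3 libraries with SD error bars and a point for each library. The share of RAB7A was 9.95% in the control and 5.51% in the knockdown libraries, and that of RAB11A was 8.58% and 15.5%.

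A gene was called when it differed by at least 2-fold on the log2(TPM + 1) scale with an adjusted p under 0.05 in limma-trend, fitted over all 14394 tested genes. Of the 45 tested RAB genes, 2 were called higher in the knockdown libraries (4.44%), against 6.77% of all tested genes. A further 10 were called lower (22.2%), against 23.7% of all tested genes. Both shares lie near the background, so that the RAB genes as a set are not set apart by their calls. At an adjusted p under 0.05 with no minimum fold, 9 rose (20.0%, against 21.1% of all tested genes) and 28 fell (62.2%, against 50.9%), and 8 did not pass. The groups did not overlap for 38 of the 45 (84.4%, against 75.2% of all tested genes). The median log2 fold change of the 45 was -0.50 and that of all tested genes was -0.36, a difference of -0.14. Single genes lay between -2.01 (RAB8B) and 1.51 (RAB17).

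Because the median tested gene lay at -0.36, the split of calls depends on the scaling, and 5 other scalings were run. The RAB genes were called 5 higher and 4 lower after median-of-ratios scaling, 4 and 5 with upper-quartile scaling, 5 and 3 with quantile normalization, 8 and 2 with each library's median subtracted, and 2 and 12 with the nuclear protein-coding genes alone brought to a fixed sum. All tested genes split as 2016 higher and 1792 lower, 1884 and 1905, 1673 and 1846, 2574 and 1305, and 506 and 3831 under the same scalings, against 974 and 3406 with TPM as deposited. Under TPM and all 5 scalings, 7 RAB genes rose (RAB17, RAB3C, RAB13, RAB24, RAB11A, RAB32 and RAB34) and 13 fell (RAB8B, RAB21, RAB2B, RAB12, RAB33B, RAB8A, RAB6A, RAB7A, RAB35, RAB22A, RAB2A, RAB14 and RAB28) at an adjusted p under 0.05. RAB17 and RAB3C were called higher and RAB8B and RAB21 lower under each of them. How many of all tested genes rose, fell or were called under every scaling was not computed. These counts therefore have no background beside them and do not set the RAB genes apart.

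**Figure D3:**
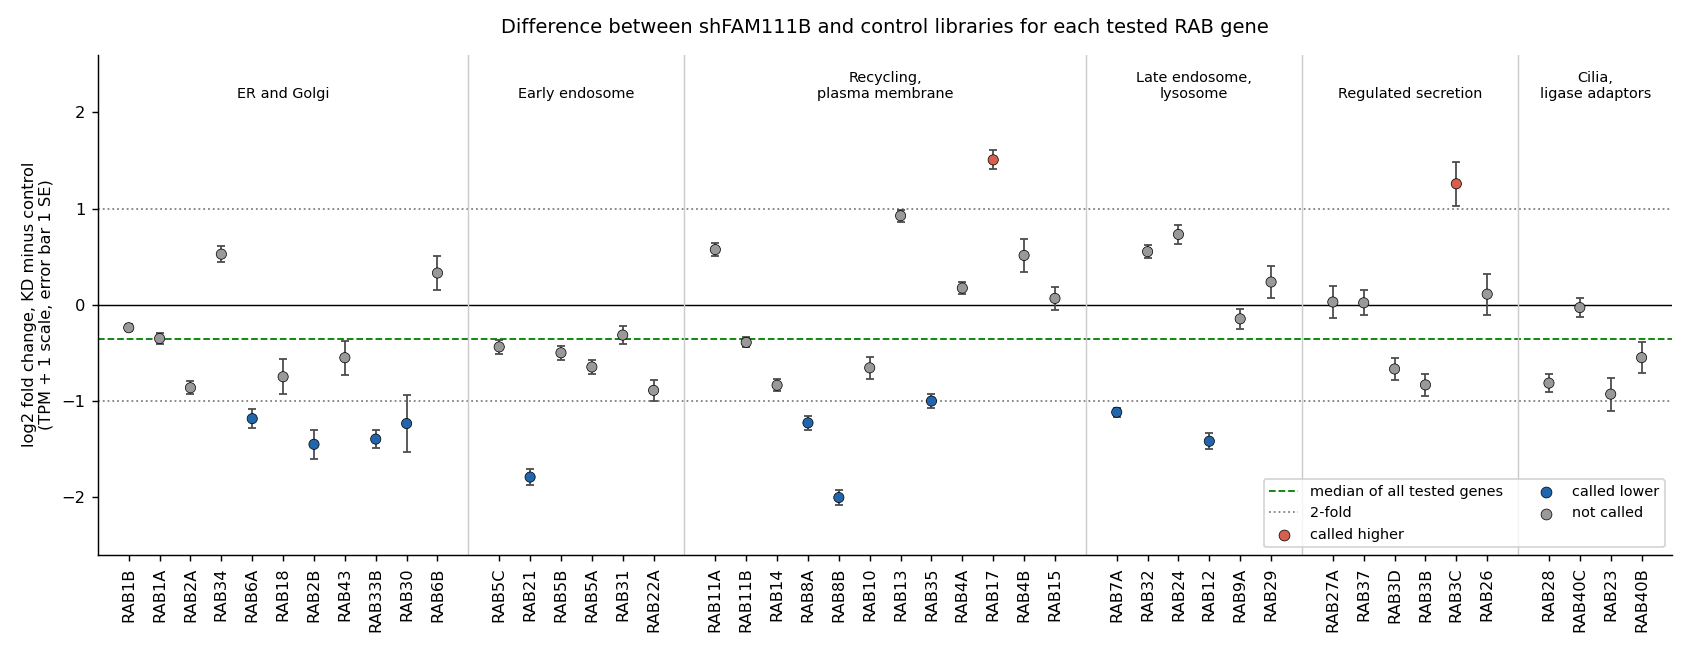
Log2 fold change (knockdown minus control, TPM + 1 scale) of each tested RAB gene with an error bar of 1 SE, by compartment. The dashed line is the median of all tested genes (-0.36) and the dotted lines are 2-fold; 2 genes are called higher, 10 lower, and the early endosome RABs all lie below 0, of which RAB5B, RAB5C and RAB31 turn above 0 with library medians subtracted.

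Of the 11 tested RABs of the ER and Golgi, none was called higher and 4 were called lower (36.4%, against 23.7% of all tested genes). At an adjusted p under 0.05, 1 rose (9.09%, against 21.1%) and 9 fell (81.8%, against 50.9%). The median log2 fold change was -0.75 against -0.36 for all genes. Under TPM and each of the 5 other scalings 4 of the 11 fell, a count without a background from all tested genes. None of the 4 calls at 2-fold held under each of these scalings. RAB2B, which like RAB2A acts between the ER and the Golgi, was at 13.9, 9.56 and 13.1 TPM in the control libraries and 3.87, 4.06 and 3.40 TPM in the knockdown libraries (log2 fold change -1.45, SE 0.15, adjusted p = 0.000115). All 3 knockdown libraries lay below the lowest control library. Its paralogue RAB2A was at 114, 101 and 99.9 TPM in the control libraries and 54.97, 58.9 and 57.6 TPM in the knockdown libraries (log2 fold change -0.86, SE 0.067, adjusted p = 2.9e-05), a fall that stayed under 2-fold, and the groups did not overlap. RAB33B, a Golgi RAB that also binds the autophagy protein ATG16L1, was at 9.28, 8.96 and 8.98 TPM in the control libraries and 2.59, 3.01 and 2.88 TPM in the knockdown libraries (log2 fold change -1.40, SE 0.098, adjusted p = 1.9e-05), with tight groups far apart. RAB6A, which directs traffic from Golgi to ER and within the Golgi, was at 43.8, 41.5 and 39.7 TPM in the control libraries and 17.8, 20.1 and 15.6 TPM in the knockdown libraries (log2 fold change -1.19, SE 0.098, adjusted p = 3.9e-05), and its groups did not overlap. RAB6A has near-identical retro-copies, RAB6C and RAB6D, which were at or near 0, and reads shared between copies may be split by the counting. RAB30, another Golgi RAB, was called lower on low values, 2.73, 5.98 and 2.10 TPM in the control libraries and 0.78, 0.71 and 1.03 TPM in the knockdown libraries (log2 fold change -1.24, SE 0.3, adjusted p = 0.00778). Control library 2 was far above the other two, and without it the log2 fold change was -0.89, so that the call at 2-fold was lost. RAB1B differed by little (log2 fold change -0.24, SE 0.037, adjusted p = 0.000919) and lay above the median gene by 0.12, and RAB1A, at 177, 181 and 164 TPM in the control libraries and 131, 143 and 134 TPM in the knockdown libraries, had a log2 fold change of -0.35 (SE 0.057, adjusted p = 0.00112). The direction of RAB1A and RAB1B turned positive under 3 of the 5 other scalings. RAB34 was the single member of this compartment that rose, from 56.7, 56.7 and 65.4 TPM to 93.6, 81.1 and 83.97 TPM (log2 fold change 0.53, SE 0.082, adjusted p = 0.000895). RAB6B, a paralogue of RAB6A known from neurons, was at 0.93, 0.80 and 0.91 TPM in the control libraries and 1.06, 1.14 and 1.99 TPM in the knockdown libraries and did not pass the test (adjusted p = 0.141), but passed as higher under 4 of the 5 other scalings. RAB18, of lipid droplets and the ER, and RAB43 of the Golgi fell by 0.75 and 0.55 on the log2 scale, and each passed under 1 of the 5 other scalings, that of the nuclear protein-coding genes, with the same sign under the other 4. RAB43 shares its locus with the readthrough gene ISY1-RAB43, and RAB2B overlaps TOX4 on the opposite strand, so these values are uncertain. RAB1A and RAB6B, and in other compartments RAB5A, RAB14, RAB15, RAB23 and RAB37, also overlap a coding gene on the opposite strand. Since the strand setting of the counting is not given, their values carry the same limit.

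With TPM as deposited, all 6 tested RABs of early endosomes and endocytosis fell (100%, against 50.9% of all tested genes), and 1 was called lower at 2-fold (16.7%, against 23.7%). Their median log2 fold change was -0.57. RAB21 and RAB22A fell under each of the 5 other scalings as well. RAB21, which binds integrin tails and carries them into early endosomes, was at 47.6, 40.4 and 44.7 TPM in the control libraries and 11.5, 12.98 and 11.6 TPM in the knockdown libraries (log2 fold change -1.79, SE 0.085, adjusted p = 4.7e-06). Its highest knockdown value was less than the lowest control value by a wide margin, and it lay 1.43 below the median gene on the log2 scale. GENCODE v29 lists 4 transcripts of RAB21, from 404 to 15546 nt, the widest span among the tested RABs, and once the trend with length and expression was taken out, its log2 fold change was -0.93. The RAB5 genes are the central organisers of early endosomes. RAB5C, the most abundant of them, was at 122, 105 and 119 TPM in the control libraries and 87.5, 88.4 and 78.4 TPM in the knockdown libraries (log2 fold change -0.44, SE 0.076, adjusted p = 0.00154). RAB5A was at 35.9, 34.5 and 32.5 TPM in the control libraries and 20.1, 22.9 and 21.6 TPM in the knockdown libraries (log2 fold change -0.65, SE 0.073, adjusted p = 0.000171) and RAB5B at 43.6, 42.97 and 40.5 TPM in the control libraries and 30.7, 31.1 and 27.3 TPM in the knockdown libraries (log2 fold change -0.50, SE 0.071, adjusted p = 0.000554). The groups did not overlap for any of the 3, and their falls were under 2-fold. RAB5C overlaps another annotated coding gene on the same strand, so its value is uncertain. RAB5B and RAB5C turned to 0.0327 and 0.0944 with library medians subtracted, so their direction depends on the scaling. RAB22A, which acts between early endosomes and recycling, was at 6.98, 6.70 and 5.87 TPM in the control libraries and 2.99, 3.20 and 2.95 TPM in the knockdown libraries (log2 fold change -0.89, SE 0.11, adjusted p = 0.000253), but with the trend of length and expression removed it was at 0.057 (adjusted p = 0.658 in limma-trend). Its relative RAB31 had a log2 fold change of -0.32 (adjusted p = 0.0215), which turned positive under 4 of the 5 other scalings, up to 0.22, without passing. With the trend removed RAB31 was at 0.38 (adjusted p = 0.00997) and RAB5B at 0.21 (adjusted p = 0.033), both higher in limma-trend.

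The RABs of recycling and delivery to the plasma membrane moved both ways. Of the 12 tested, 1 was called higher (8.33%, against 6.77% of all tested genes) and 3 lower (25.0%, against 23.7%). With no minimum fold, 5 rose (41.7%, against 21.1%) and 6 fell (50%, against 50.9%), the latter near the background. RAB8B had the lowest log2 fold change of all tested RABs. Together with RAB8A it moves membrane from the Golgi and recycling endosomes to the plasma membrane and the primary cilium. RAB8B was at 49.2, 46.4 and 44.4 TPM in the control libraries and 10.2, 11.7 and 10.8 TPM in the knockdown libraries (log2 fold change -2.01, SE 0.075, adjusted p = 2.9e-06), and RAB8A at 48.3, 51.2 and 51.6 TPM in the control libraries and 21.4, 22.2 and 19.2 TPM in the knockdown libraries (log2 fold change -1.23, SE 0.071, adjusted p = 9e-06). The groups of both genes did not overlap, and both had near-equal control levels, 46.7 ± 2.39 and 50.4 ± 1.79 TPM (SD, n = 3). Under the other scalings RAB8B lay between -2.15 and -1.47 and RAB8A between -1.36 and -0.70. RAB8A overlaps the coding gene HSH2D on the same strand, so its value is uncertain. RAB35, of fast recycling and cytokinesis, was at 32.8, 33.7 and 36.5 TPM in the control libraries and 15.7, 17.02 and 17.2 TPM in the knockdown libraries (log2 fold change -1.002, SE 0.071, adjusted p = 2e-05). It lay just inside the 2-fold limit, and without control library 3 or knockdown library 1 it was at -0.96, so that its call was lost. Just outside the limit lay RAB23 at -0.93 and RAB13 at 0.93. RAB14, of traffic between the Golgi and endosomes, was at 55.5, 53.7 and 48.9 TPM in the control libraries and 29.1, 29.6 and 28.4 TPM in the knockdown libraries (log2 fold change -0.84, SE 0.065, adjusted p = 2.9e-05), and RAB10, of exocytosis and GLUT4 delivery, at 44.4, 44.5 and 36.9 TPM in the control libraries and 24.03, 30.1 and 24.7 TPM in the knockdown libraries (log2 fold change -0.66, SE 0.11, adjusted p = 0.00148). Neither group pair overlapped. RAB10 kept its sign under the other scalings and passed under 1 of the 5.

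RAB17, an epithelial RAB of apical recycling and transcytosis, was the highest of all RABs in fold change, at 7.58, 8.22 and 8.40 TPM in the control libraries and 23.7, 22.8 and 28.04 TPM in the knockdown libraries (log2 fold change 1.51, SE 0.098, adjusted p = 1.4e-05). Each knockdown library was above 22 TPM and each control library below 9 TPM. RAB13, a relative of RAB8 and RAB10 that acts at tight junctions, was at 39.9, 39.3 and 39.9 TPM in the control libraries and 74.5, 72.2 and 82.5 TPM in the knockdown libraries (log2 fold change 0.93, SE 0.062, adjusted p = 1.6e-05), just short of 2-fold, and was called at 2-fold under 4 of the 5 other scalings. RAB13 overlaps another annotated coding gene on its strand. RAB11A, the main RAB of the recycling endosome, was at 195, 176 and 178 TPM in the control libraries and 294, 268 and 258 TPM in the knockdown libraries (log2 fold change 0.57, SE 0.066, adjusted p = 0.000201), the largest gain in TPM of any RAB, while RAB11B was at 113, 117 and 121 TPM in the control libraries and 91.8, 90.4 and 84.8 TPM in the knockdown libraries (log2 fold change -0.39, SE 0.053, adjusted p = 0.00043). The groups did not overlap for either, in opposite directions. RAB11B turned to 0.14 with library medians subtracted and did not pass there. RAB11A shares its locus with DENND4A on the opposite strand and the strand setting of the counting is not given, so reads of the 2 genes may not be told apart. RAB4A and RAB4B, of fast recycling from early endosomes, rose by less than 2-fold, RAB4A from 33.4 ± 1.67 to 37.8 ± 1.7 TPM and RAB4B from 7.85 ± 2.08 to 11.4 ± 0.795 TPM (adjusted p = 0.0454 and 0.0297), and both passed as higher under 4 of the 5 other scalings. RAB4B lies within the readthrough genes MIA-RAB4B and RAB4B-EGLN2, and RAB4A overlaps the coding gene SPHAR on the same strand, so both values are uncertain. RAB15 did not pass the test, at 7.65, 6.52 and 7.55 TPM in the control libraries and 8.24, 6.46 and 8.25 TPM in the knockdown libraries, with overlapping groups, but passed as higher under 4 of the 5 other scalings.

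Among the 6 tested RABs of late endosomes, lysosomes and related organelles, 2 were called lower (33.3%, against 23.7% of all tested genes). At an adjusted p under 0.05, 2 rose (33.3%, against 21.1%), 2 fell (33.3%, against 50.9%) and 2 did not pass. The median log2 fold change was 0.04. RAB7A, which drives the maturation of late endosomes, their fusion with lysosomes and the late steps of autophagy, was at 218, 209.6 and 209 TPM in the control libraries and 97.7, 101 and 93.1 TPM in the knockdown libraries (log2 fold change -1.12, SE 0.048, adjusted p = 3.6e-06). This was the largest loss in TPM of any RAB, with no overlap, and the value was -1.08 after removal of the length and expression trend. RAB12, which sends the transferrin receptor to lysosomes, was at 21.8, 23.9 and 21.98 TPM in the control libraries and 7.61, 8.46 and 7.37 TPM in the knockdown libraries (log2 fold change -1.42, SE 0.084, adjusted p = 9.6e-06), and its groups did not overlap. RAB24, a RAB associated with autophagy, rose from 22.6, 26.6 and 27.4 TPM to 39.2, 42.8 and 47.04 TPM (log2 fold change 0.73, SE 0.099, adjusted p = 0.000443), although it overlaps MXD3 on the same strand and is uncertain. RAB32 rose from 50.9, 49.03 and 52.4 TPM to 69.9, 73.3 and 81.9 TPM (log2 fold change 0.55, SE 0.07, adjusted p = 0.000319). RAB9A, of transport from late endosomes to the Golgi, and RAB29, a binding partner of the kinase LRRK2, had overlapping groups and adjusted p of 0.23 and 0.241. RAB9A passed as higher under 3 of the 5 other scalings and as lower under 1, and RAB29 passed as higher under 4.

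The RABs of regulated secretion were low in these cells. RAB27A, which docks secretory granules and exosome-bearing endosomes, was the most abundant, at 13.9, 14.6 and 16.1 TPM in the control libraries and 15.1, 11.8 and 19.4 TPM in the knockdown libraries, with overlapping groups (log2 fold change 0.03, adjusted p = 0.889), but passed as higher under 3 of the 5 other scalings, at 0.45 to 0.56. RAB3C, known from neurons and endocrine cells, was called higher, at 2.70, 3.14 and 2.58 TPM in the control libraries and 5.90, 7.36 and 12 TPM in the knockdown libraries (log2 fold change 1.26, SE 0.23, adjusted p = 0.00208). Each knockdown library was above each control library, and knockdown library 3 was well above the other two. Without it the log2 fold change was just under 1, and the call was lost. RAB3B and RAB3D fell from 3.10 ± 0.149 to 1.30 ± 0.08 TPM and from 4.83 ± 0.413 to 2.67 ± 0.136 TPM (adjusted p = 0.000517 and 0.00127), and passed under 4 and 3 of the 5 other scalings. RAB37 and RAB26 did not pass, but passed as higher under 4 and 1 of them. In the group of cilia and ubiquitin ligase adaptors, RAB28, a ciliary RAB, was the most abundant, at 25.6, 29.2 and 24.9 TPM in the control libraries and 14.7, 15.9 and 13.4 TPM in the knockdown libraries (log2 fold change -0.82, SE 0.094, adjusted p = 0.000191), with no overlap. RAB23, an inhibitor of Hedgehog signalling, and RAB40B, an adaptor of a CUL5 ubiquitin ligase, fell by 0.93 and 0.55 on the log2 scale, with a pass under 4 and 1 of the other scalings. RAB40C did not pass (adjusted p = 0.797 in limma-trend), but passed as higher under 4 of them. RAB27A, RAB3D and RAB40C each overlap a coding gene on the same strand, so their values are uncertain.

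**Figure D4:**
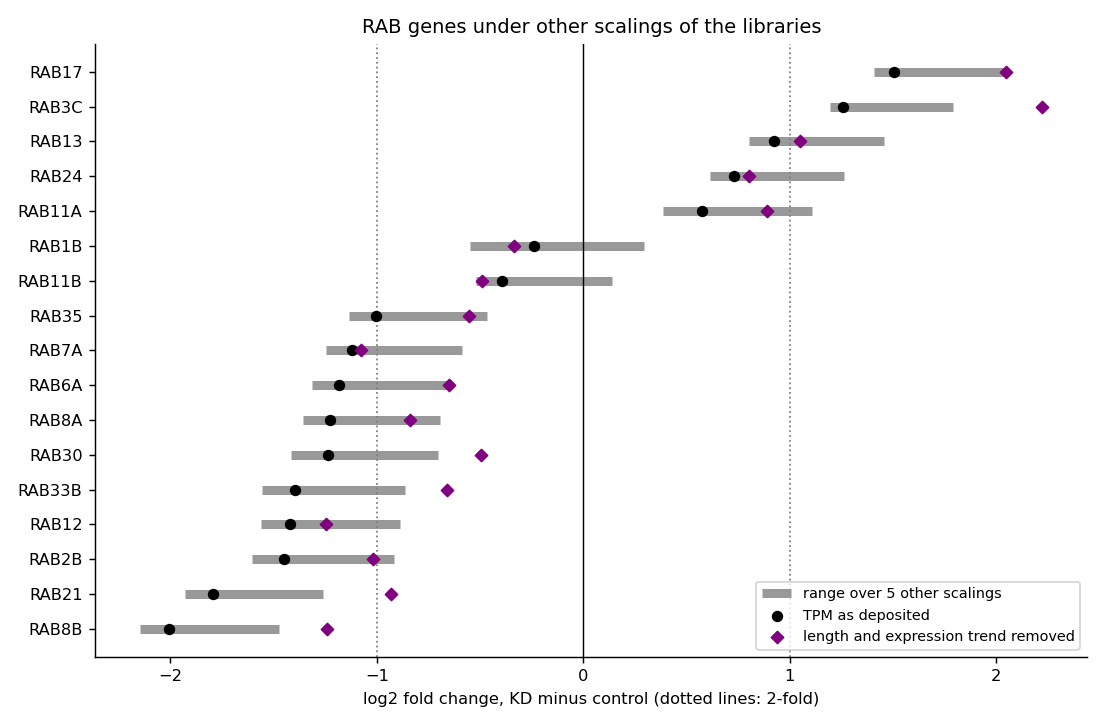
Log2 fold change (knockdown minus control) of the 12 called RAB genes and of RAB13, RAB24, RAB11A, RAB1B and RAB11B with TPM as deposited (circles), the range over 5 other scalings (bars) and with the length and expression trend taken out (diamonds). RAB17 and RAB3C stay above and RAB8B and RAB21 below 2-fold under the 5 scalings, RAB21 is at -0.93 after trend removal, and RAB1B and RAB11B cross 0.

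In a ratio of 2 paralogues within a library a factor common to the whole library cancels, apart from the pseudocount, and 13 pairs with both genes tested were compared. The ratios of 9 pairs did not overlap between the groups, each with p = 0.1 in an exact two-sided permutation test, the smallest that 3 against 3 libraries allow, and an adjusted p of 0.144 over the 13 pairs, so that no pair could pass 0.05. The share of other gene pairs whose ratios do not overlap was not computed, so this count has no background beside it. The log2 ratio of RAB11A to RAB11B was 0.78, 0.59 and 0.55 in the control libraries and 1.67, 1.55 and 1.59 in the knockdown libraries, a difference of 0.97, or 1.95-fold, in favour of RAB11A. For RAB10 to RAB13 it was 0.15, 0.18 and -0.11 in the control libraries and -1.59, -1.24 and -1.70 in the knockdown libraries, so that 2 genes at about the same level in the control differed in the knockdown by a ratio that had moved 2.99-fold in favour of RAB13. For RAB8A to RAB8B it was -0.02, 0.14 and 0.21 in the control libraries and 1.00, 0.88 and 0.79 in the knockdown libraries, a difference of 0.78, since RAB8B was lower by more than RAB8A. For RAB2A to RAB2B it was 2.95, 3.27 and 2.83 in the control libraries and 3.52, 3.57 and 3.73 in the knockdown libraries, a difference of 0.59. RAB6A to RAB6B differed by -1.51, with RAB6B under 2 TPM in each library. RAB22A to RAB31 differed by -0.58 and RAB40B to RAB40C by -0.52. The other 6 pairs differed by 0.34 or less in size. RAB5A to RAB5B (difference -0.15) and RAB3B to RAB3D (difference -0.17) did not overlap, and RAB1A to RAB1B, RAB4A to RAB4B, RAB5A to RAB5C and RAB5B to RAB5C overlapped. RAB3C, which was called higher while RAB3B and RAB3D fell, was in no pair, so its ratios to them were not compared.

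**Figure D5:**
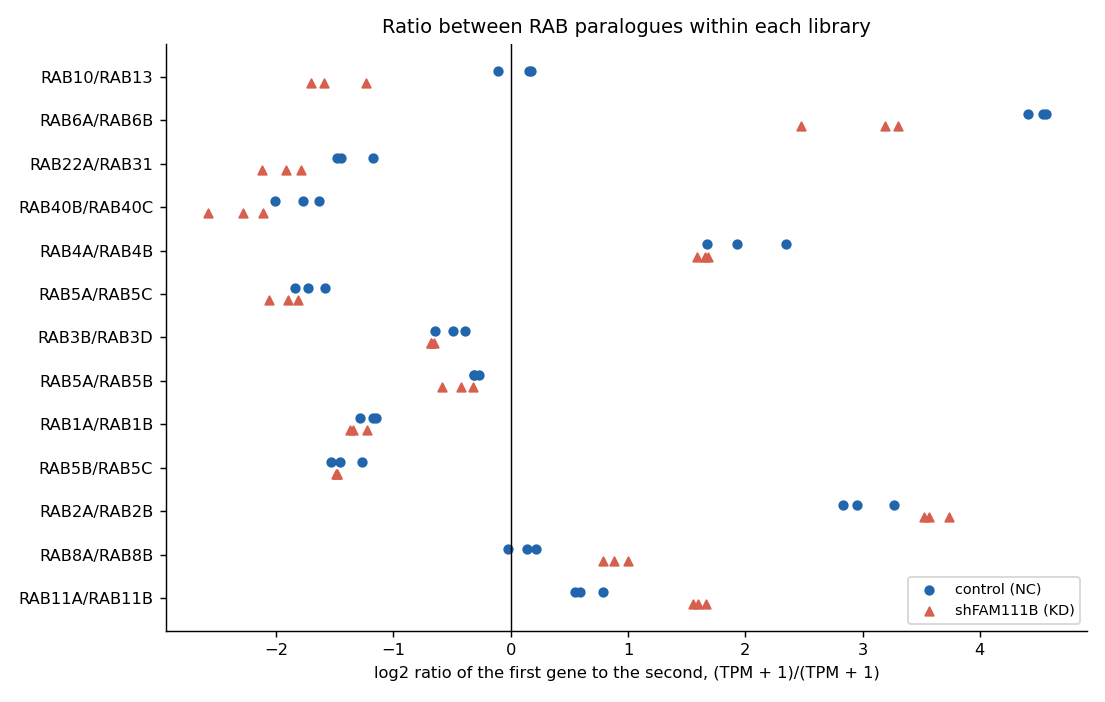
Log2 ratio of the first to the second gene of 13 RAB paralogue pairs, (TPM + 1)/(TPM + 1), in each control (circles) and knockdown (triangles) library. RAB11A/RAB11B, RAB8A/RAB8B and RAB2A/RAB2B lie further right in the knockdown libraries, RAB10/RAB13 and RAB6A/RAB6B further left, and the 3 RAB5 ratios differ by 0.21 or less in size.

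Transcript length moved with the fold change in these libraries, and the RAB genes were no exception. The coding lengths of the tested RABs are alike, 582 to 1020 nt with a median of 645 nt, while their longest transcripts run from 1217 to 15546 nt with a median of 3389 nt, so that they differ mainly outside the coding part. Spearman's rank correlation between the length of the longest transcript and the log2 fold change was -0.314 across the 45 RAB genes and -0.46 across 14251 tested genes, as descriptions across genes that share the same libraries. The 8 RABs of up to 2000 nt had a median log2 fold change of 0.31 (0.27 for the 3713 such genes), the 20 of 2000 to 4000 nt had -0.45 (-0.32 for 5162 genes), and the 17 of over 4000 nt had -0.75 (-0.81 for 5376 genes). None of the 12 called RABs had a longest transcript of 2000 nt or less. RAB17, with 3211 nt, and RAB3C, with 8896 nt, were higher at lengths where the typical gene was lower, and RAB7A, with 2244 nt, and RAB12, with 2145 nt, were lower at lengths below the median of 3212 nt. With the trend of length and expression removed, the median of the RABs was -0.04 against -0.02 for all genes. Of the 45 RABs, 3 were then called higher (RAB17 at 2.05, RAB3C at 2.22 and RAB13 at 1.05) and 4 lower (RAB8B at -1.24, RAB12 at -1.24, RAB7A at -1.08 and RAB2B at -1.02). Of the 14251 genes in the same setting, 1353 were called higher (9.49%) and 1302 lower (9.14%), so the RAB counts do not stand out. The longest annotated transcript need not be the one expressed, and the part of length in these values was not tested further.

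The proteins that act on RABs were read from 4 lists. Of 161 listed genes 148 were tested, 5 were called higher and 47 lower (3.38% and 31.8%, against 6.77% and 23.7% of all tested genes), with a median log2 fold change of -0.63. With median-of-ratios scaling the split of the 148 turned to 14 higher and 20 lower, beside 14% and 12.4% of all tested genes. It was 16 and 14 with library medians subtracted, beside 17.9% and 9.07%. With the length and expression trend removed it was 15 and 7, beside 9.49% and 9.14%. The effectors, which read the GTP-bound RAB, had the lowest median, -0.91 over 53 tested genes, with 23 called lower (43.4%) and 1 higher. Their longest transcripts had a median of 5162 nt, against 3212 nt for all tested genes, and the median after trend removal was -0.22. USO1, a tether recruited by RAB1, was at 61.7, 59.4 and 57.1 TPM in the control libraries and 11.97, 13.9 and 12.9 TPM in the knockdown libraries (log2 fold change -2.12, SE 0.073, adjusted p = 2.6e-06). RAB11FIP1, an effector of the RAB11 proteins, was at 15.3, 14.4 and 13.98 TPM in the control libraries and 1.95, 1.41 and 1.20 TPM in the knockdown libraries (log2 fold change -2.64, SE 0.13, adjusted p = 5.7e-06), in the libraries in which RAB11A was higher. OCRL, an inositol phosphatase bound by many RABs, was at 14.1, 14.2 and 13.7 TPM in the control libraries and 3.67, 4.43 and 4.03 TPM in the knockdown libraries (log2 fold change -1.58, SE 0.094, adjusted p = 9.9e-06). The groups did not overlap for any of the 3. Of the exchange factors, 53 were tested, 2 were called higher and 14 lower (3.77% and 26.4%), the latter near the 23.7% of all tested genes, with a median of -0.45. DENND5A was at 44.1, 43.8 and 45.2 TPM in the control libraries and 10.9, 11.8 and 10.9 TPM in the knockdown libraries (log2 fold change -1.90, SE 0.063, adjusted p = 2.6e-06), GAPVD1, an exchange factor of RAB5, at 15.2, 14.7 and 14.9 TPM in the control libraries and 4.16, 4.12 and 4.07 TPM in the knockdown libraries (log2 fold change -1.64, SE 0.08, adjusted p = 5e-06) and TRAPPC10, a subunit of a TRAPP complex that acts on RAB1 and RAB11, at 12.4, 13.1 and 15.04 TPM in the control libraries and 2.58, 2.35 and 2.25 TPM in the knockdown libraries (log2 fold change -2.10, SE 0.11, adjusted p = 6.2e-06). In all 3 the knockdown libraries lay far below the control libraries. The 2 exchange factors called higher are TRAPP subunits as well, TRAPPC5 (log2 fold change 1.51, SE 0.099) and TRAPPC2L (1.36, SE 0.11). The subunits of these complexes thus moved both ways. Of the GTPase-activating proteins, 35 were tested, 1 was called higher and 9 lower (2.86% and 25.7%), the latter again near the 23.7% of all tested genes, with a median of -0.47. TBC1D8B was at 7.56, 7.02 and 6.99 TPM in the control libraries and 1.79, 1.72 and 1.36 TPM in the knockdown libraries (log2 fold change -1.65, SE 0.12, adjusted p = 2e-05), TBC1D14 at 27.8, 28.4 and 30.1 TPM in the control libraries and 12.96, 14.7 and 13.1 TPM in the knockdown libraries (log2 fold change -1.03, SE 0.076, adjusted p = 2.3e-05) and TBC1D25 at 18.99, 16.4 and 18.4 TPM in the control libraries and 6.82, 7.65 and 6.80 TPM in the knockdown libraries (log2 fold change -1.23, SE 0.091, adjusted p = 2.5e-05), with no overlap. Of 7 tested genes of prenylation, escort and recycling, 1 was called in each direction (14.3%, against 6.77% higher and 23.7% lower of all tested genes), with a median of -0.55. RABAC1, a small membrane protein that binds prenylated RABs, rose, at 63.4, 63.1 and 63.9 TPM in the control libraries and 142, 134 and 160.2 TPM in the knockdown libraries (log2 fold change 1.18, SE 0.07, adjusted p = 9.7e-06). PTAR1, a prenyltransferase subunit, fell, at 21.8, 19.9 and 18.4 TPM in the control libraries and 6.36, 6.93 and 6.36 TPM in the knockdown libraries (log2 fold change -1.48, SE 0.09, adjusted p = 1.1e-05).

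The ARF branch of the small GTPases and the RAB-like genes were set beside the RABs, with the same fit. Of 24 tested ARF, ARL and SAR genes, 3 were called higher and 6 lower (12.5% and 25.0%), with a median of -0.26. Of 8 tested RAB-like genes whose names fall outside the rule, none was called higher and 2 were called lower (25.0%), with a median of -0.11. The RAB shares stand beside these as 4.44% and 22.2%, and the differences between the families were not tested.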

How the data were processed

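RNA-seq of Huh7 control and FAM111B knockdown cells was analysed from the table that the authors deposited, which holds TPM per gene and library. The submitters' processing notes list RSEM, DESeq2 and hg38 without roles. The aligner, the gene annotation and the strand setting of the counting are not given in the sources used here. The labels name a stranded mRNA kit and the methods a TruSeq kit. The table also holds the authors' group means and the authors' own comparison (a ratio of the groups, the log2 of that ratio, and p-values before and after adjustment), which were not used. Gene TPM from RSEM sum isoform values, so a shift between isoforms of unlike length can move a TPM without a like change in reads.

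Genes that reached 1 TPM in 3 or more of the 6 libraries were compared on log2(TPM + 1) with limma-trend (limma 3.58.1, R 4.3.3) without covariates, two-sided, with Benjamini-Hochberg adjustment over all 14394 tested genes. Fold changes are on this scale and understate the change of low genes. Exact permutation tests used scipy 1.17.1. Alternatives were other scalings, pseudocounts, filters and call rules, a replicate block, removal of a loess trend with length and expression, and leaving out each library. The fit was checked on simulated data. Under 1% of tested genes had identical values in any pair of libraries of a group, so no library was counted as a duplicate. Positions and lengths come from GENCODE v29 (GRCh38), which matched 58420 of 60666 identifiers (96.3%). The RAB genes and all lists were chosen with earlier results of these data known. Genes are named by a rule: FAM111B, each called RAB gene with a mean of at least 5 TPM in 1 group, the most abundant RAB of each compartment, their tested paralogues, the 10 RABs with the highest levels, and the 3 called genes with the smallest p of each partner list. Other RAB genes, and also TRAPPC5 and TRAPPC2L, were named after their values were seen. The result of 1 further comparison list is not reported here.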

Additional observations from a re-analysis of the deposited data

How the results depend on the processing

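The counts of 2 RAB genes called higher and 10 lower moved with the scaling of the libraries. With median-of-ratios scaling they were 5 and 4, with upper-quartile scaling 4 and 5, with quantile normalization 5 and 3, and with library medians subtracted 8 and 2. With the length and expression trend removed 4 were lower, and with no minimum fold 9 were higher and 28 lower. Without knockdown library 3 the count called higher was 1, since the call of RAB3C was lost, so that leave-one-out counts were 1 to 2 higher and 9 to 10 lower. The counts stayed within 1.5 times under the other alternatives. The median log2 fold change of the RABs (-0.50) turned to 0.0327 with library medians subtracted, and was -0.0576 (median-of-ratios), -0.0971 (upper-quartile), -0.28 (quantile), -0.63 (nuclear protein-coding genes), -0.0373 (trend removed), -0.26 (no filter, 60 RABs, RAB36 then also called higher), -0.47 (1 TPM in every library) and -0.53 to -0.41 (leave-one-out). The partner genes (5 higher, 47 lower) were 14 and 20 (median-of-ratios and upper-quartile), 13 and 16 (quantile), 16 and 14 (library medians), 15 and 7 (trend removed) and 4 to 8 and 41 to 48 (leave-one-out). With a pseudocount of 0.1, 14 of the 45 tested RABs were lower, beside 29.5% of all tested genes.

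Directions turned for RAB11B (0.14, 0.059 and 0.0189), RAB1A (0.18, 0.10 and 0.0604) and RAB1B (0.29, 0.21 and 0.17) with library medians, median-of-ratios and upper-quartile scaling, for RAB5C (0.0944 and 0.012) with the first 2 of these, for RAB5B with library medians (0.0327) and with the trend removed (0.21), and for RAB27A, which passed no test in the main setting, with nuclear protein-coding genes (-0.0925), without knockdown library 3 (-0.14) and without control library 1 (-0.015), its leave-one-out values being -0.14 to 0.20. RAB27A passed as higher with median-of-ratios scaling (0.45), quantile normalization (0.53), library medians subtracted (0.56) and the trend removed (0.62). The cause was not tested. For the 36 RAB and partner genes named by the rule, 542 of 572 values under other settings kept direction and side of the adjusted p threshold. FAM111B stayed between -2.93 and -1.66. The 9 paralogue pairs were 9 to 12 under leave-one-out and 9 with a pseudocount of 0.1.

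With the replicate block, 2 RABs were higher and 10 lower, and 983 of all tested genes were higher and 3402 lower. Same-numbered libraries had residual correlations of 0.054, 0.0349 and 0.0908, so the numbers were not shown to pair the libraries, and 1 of 6 libraries correlated best with another number. Read depth behind the TPM is unknown, so RABs near 1 TPM carry an unknown counting error.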
